A study of Mus musculus with 4 samples.

Results

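The genes described here were grouped under the meeting, fusion and activation of the egg by a mouse sperm. The group takes in Izumo paralogues, and Izumo3 is described below by its part in shaping the acrosome. The genes were chosen by name, with earlier results of these data known. They are Izumo1, Izumo2, Izumo3, Izumo4, Spaca6, Tmem95, Dcst1, Dcst2, Plcz1 and Spaca4, 10 genes out of 22552 symbols in each table. Of these, 8 were listed under their own symbol, and Spaca6 was listed under its older symbol Ncrna00085, which RefSeq pairs with it, so 9 genes had values. Dcst2 was found under no symbol and is not analysed here.

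RNA was sequenced from haploid cells, sorted by their Hoechst staining from whole testes of male mice aged 23 days and labelled round spermatids, which are haploid germ cells that have not yet elongated. There were 2 libraries from Sox30 knockout (KO) mice and 2 from wild-type (WT) mice. The strain label was DBA/C58/ICR and DBA/C60/ICR for KO libraries 1 and 2, and DBA/C57/ICR and DBA/C59/ICR for WT libraries 1 and 2. These differ only in a number that counts up from sample to sample, so whether they name different strains is doubtful. The labels do not give the part of Sox30 that was removed, nor whether 2 libraries of 1 genotype are from different mice. The p-values therefore rest on the spread from library to library, which may be technical. Sox30, which encodes a transcription factor of the SOX family, was at 1.46 and 3.16 FPKM in the KO libraries and 11.4 and 16.2 FPKM in the WT libraries.

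Fusion takes place between the sperm head, after its acrosome has opened, and the egg membrane. The sperm protein IZUMO1 binds the egg receptor JUNO, and other sperm membrane proteins, among them SPACA6, TMEM95 and the DCST pair, are also needed before the membranes can merge. Once inside, the phospholipase PLCZ1 releases calcium in waves that start the egg's development. Transcripts for these sperm proteins are made in spermatids, well before the proteins are used.

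Levels are FPKM, fragments scaled for the length of the transcript and the size of the library, and can be compared between genes. Changes are differences of log2(FPKM + 1), KO minus WT, from a limma fit over the 9124 genes with a mean of at least 1 FPKM, and adjusted p-values are over all of these. Read counts were not used here and the absolute depth is unknown. Estimated from the commonest ratio to WT library 1 among genes with low values, relative depth was 1.245 and 1.17 in KO libraries 1 and 2 and 1.395 in WT library 2. Symbols listed at 0 numbered 9329 and 11112 in the KO libraries and 6414 and 5915 in the WT libraries, and 3 of 25 housekeeping genes looked up were at 0 in at least 1 library, so a 0 is given here only as listed.

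Most of the fusion and activation genes were lower in the KO libraries. Of the 9 genes with values, 7 fell, 0 rose and 2 did not pass at an adjusted p under 0.05 (limma), where 13.4% of all genes tested fell and 1.95% rose. Izumo2, Spaca6 and Tmem95 were listed at 0 in both KO libraries, 3 of the 9, against 3.07% of genes tested. Plcz1 was close to 0, Spaca4, Izumo1 and Izumo3 were reduced but still present, and Dcst1 and Izumo4 did not pass. Both KO values lay below both WT values for 8 of the genes, against 38.6% of genes tested, and above them for Izumo4, against 22.2%. Izumo2, Spaca6, Tmem95 and Plcz1 passed the filter on low values through the WT libraries alone. The median change of the 9 genes was -3.25, against -0.23 over all genes tested. Since the genes were chosen with earlier results of these data known, these counts and shares are descriptions and no test of the group.

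**Figure D1:**
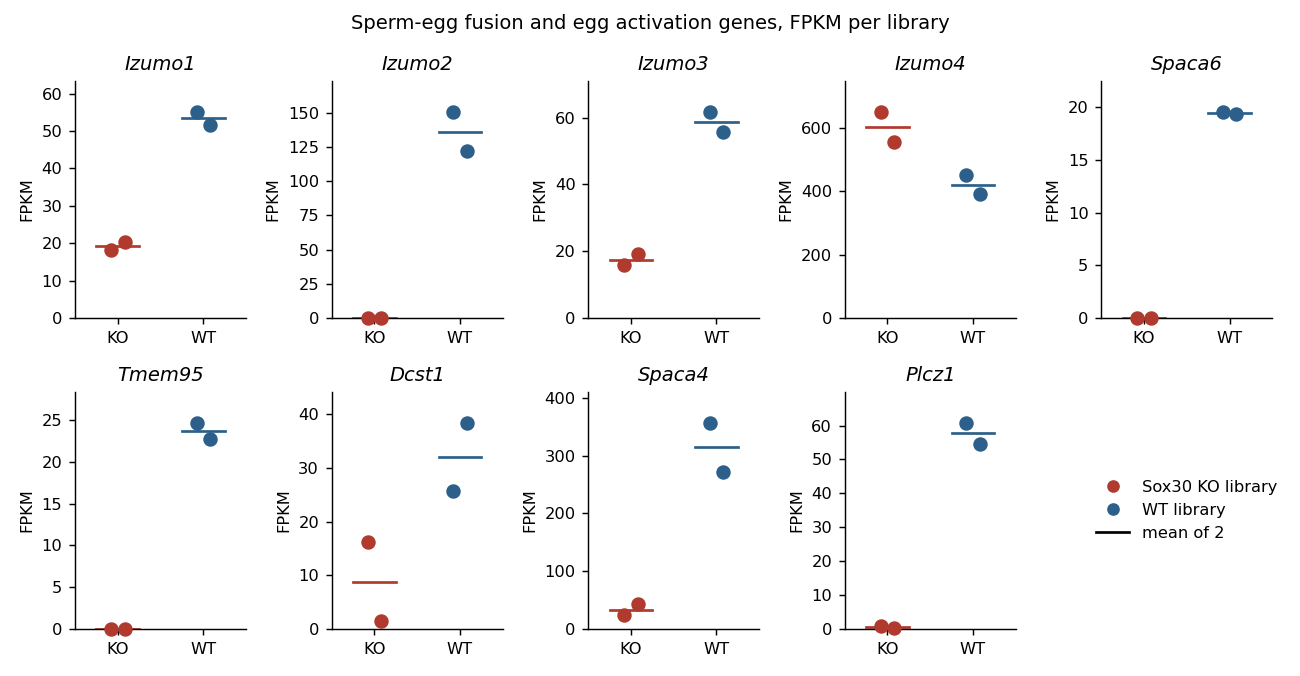
FPKM (vertical axes, each starting at 0) of the 9 genes in the 2 KO libraries (red) and the 2 WT libraries (blue), with a line at the mean of each genotype. The KO points sit at 0 for Izumo2, Spaca6 and Tmem95, lie apart at 16.2 and 1.39 FPKM for Dcst1, and lie above the WT points for Izumo4.

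The counts depended on the WT libraries. Without WT library 1, 3 of the 7 calls were made (Izumo2, Spaca6 and Tmem95), where 4.23% of all genes tested fell, and without WT library 2 none was, with 0 genes past the threshold in the whole table by limma and 1412 at an unadjusted p under 0.05. The lone WT library was then taken to vary like the KO pair. Without KO library 1 or KO library 2 the spread came from the WT pair alone and 8 of the 9 genes fell, but so did 33.7% and 20.2% of all genes tested. Apart from Dcst1, described below, the size of the changes moved by less than 1.5 times when a library was left out, and without WT library 2, for example, Izumo2 changed by -7.24 (limma adjusted p = 0.0653) and Plcz1 by -5.36 (limma adjusted p = 0.134).

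Stretches of promoter are shown for the 2 kinds of pattern below, Izumo1 and Izumo3, whose transcripts were reduced, and Izumo2 and Tmem95, whose transcripts were listed at 0 in both KO libraries. Each is the 250 bases before the RefSeq start in build GRCm38.p6, read 5′ to 3′ on the strand of the gene. The windows are chr7:45621561-45621810 on the plus strand, chr4:92147222-92147471 on the minus strand, chr7:44708480-44708729 on the plus strand and chr11:69878056-69878305 on the minus strand. Capitals mark ACAAT, the core that SOX30 recognises, the longer AACAAT that contains it, the cAMP response element TGACGTCA and its first bases TGACG, each searched on both strands.
Izumo1: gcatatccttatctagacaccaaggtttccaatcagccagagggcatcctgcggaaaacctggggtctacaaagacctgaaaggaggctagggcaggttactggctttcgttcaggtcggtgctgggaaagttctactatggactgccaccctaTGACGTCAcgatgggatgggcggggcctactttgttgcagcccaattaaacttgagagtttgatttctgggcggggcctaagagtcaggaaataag
Izumo3: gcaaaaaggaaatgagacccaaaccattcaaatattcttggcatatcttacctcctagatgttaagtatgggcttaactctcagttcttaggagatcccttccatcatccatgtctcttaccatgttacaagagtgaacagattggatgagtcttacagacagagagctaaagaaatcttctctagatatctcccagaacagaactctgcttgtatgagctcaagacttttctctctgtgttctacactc
Izumo2: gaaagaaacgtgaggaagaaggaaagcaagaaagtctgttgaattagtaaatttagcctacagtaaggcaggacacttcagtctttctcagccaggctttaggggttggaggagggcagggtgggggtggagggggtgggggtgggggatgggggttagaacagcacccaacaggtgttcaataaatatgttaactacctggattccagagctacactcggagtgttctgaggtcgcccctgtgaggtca
Tmem95: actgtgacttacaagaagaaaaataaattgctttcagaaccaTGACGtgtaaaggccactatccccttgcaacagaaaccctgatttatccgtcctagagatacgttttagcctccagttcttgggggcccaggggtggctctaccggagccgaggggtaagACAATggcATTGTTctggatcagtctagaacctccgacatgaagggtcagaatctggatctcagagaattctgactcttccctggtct

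RefSeq windows were found for 8 of the 10 genes, Dcst2 among them; Izumo4 and Plcz1 had none. ACAAT stood in 1 of the 8 windows, that of Tmem95, at 88 to 84 bases before the start and again, on the other strand, at 80 to 76 bases. The copy nearer the start is part of AACAAT. Of all 32851 promoter windows of this length, 27.7% held ACAAT and 9.42% held AACAAT. TGACGTCA stood in the Izumo1 window, 96 to 89 bases before the start, and in 1.55% of all windows. TGACG was in the Izumo1 window, as part of that element, and in the Tmem95 window at 208 to 204 bases before the start, against 17.8% of all windows. The windows of Izumo2, Izumo3, Spaca6, Spaca4, Dcst1 and Dcst2 held none of these letters. Spaca6, like Tmem95, was listed at 0 in both KO libraries, and Spaca4, like Izumo1, was reduced, though their windows are not shown. The matches describe these letters only, and binding was not measured.

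Izumo1, the sperm ligand of the egg receptor, lies on chromosome 7 and was reduced but not lost. It was at 18.3 and 20.5 FPKM in the KO libraries and 55.1 and 51.7 FPKM in the WT libraries. Both KO libraries were lower and close to each other, and the KO mean was 36.3% of the WT mean. The log2 change was -1.42 (SE 0.29, limma adjusted p = 0.0261). The call ended with median-ratio scaling (-1.20, limma adjusted p = 0.0668), with quantile normalization (-1.09, limma adjusted p = 0.0607) and without WT library 1 (limma adjusted p = 0.271) or WT library 2 (limma adjusted p = 0.263), and with the library number as a replicate block (limma adjusted p = 0.0806). Rasip1 overlaps Izumo1 on the same strand in the GENCODE annotation, sharing 654 of its 2992 exon bases, and was at 0.559 and 0 FPKM in the KO libraries and 0.304 and 0.720 FPKM in the WT libraries.

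Izumo3, a paralogue that takes part in shaping the acrosome in the mouse, lies on chromosome 4 and had nearly the same levels as Izumo1. It was at 15.8 and 19.2 FPKM in the KO libraries and 61.7 and 55.7 FPKM in the WT libraries, with no overlap. The KO mean was 29.8% of the WT mean, and the log2 change was -1.70 (SE 0.30, limma adjusted p = 0.0155). After a correction for transcript GC content it was -1.05 and no longer past the threshold (limma adjusted p = 0.0758), and the call also ended without WT library 1 (limma adjusted p = 0.250) or WT library 2 (limma adjusted p = 0.239). The ratio of Izumo1 to Izumo3 was 1.16 and 1.07 in the KO libraries and 0.893 and 0.928 in the WT libraries.

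Izumo2, another paralogue on chromosome 7, was listed at 0 in both KO libraries, against 150 and 122 FPKM in the WT libraries. In the WT it was the most abundant of the 3 Izumo genes that fell. The difference on the log2(FPKM + 1) scale was -7.09 (SE 0.33, limma adjusted p = 4.8e-04), and 37 of the 9124 genes tested had a lower one. Its size follows from the pseudocount, being -10.40 and -4.81 with pseudocounts of 0.1 and 5, and it is no measure of fold. The call ended without WT library 2 (limma adjusted p = 0.0653).

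Izumo4, the paralogue that lacks a membrane anchor, lies on chromosome 10 and went the other way. It was at 651 and 556 FPKM in the KO libraries and 451 and 392 FPKM in the WT libraries, with the KO values above the WT values. The log2 change of 0.52 did not pass (SE 0.27, limma adjusted p = 0.243), and over the 15 other settings it lay between 0.31 and 0.74, past the threshold in none. In the WT libraries it was by FPKM the most abundant of the 9 genes, ahead of Spaca4.

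The summed level of the 4 Izumo genes, without rescaling, was much alike in both genotypes, at 685 and 596 FPKM in the KO libraries and 718 and 621 FPKM in the WT libraries. The FPKM of all symbols summed to 597708 and 674234 in the KO libraries and 567627 and 500707 in the WT libraries. The likeness of the Izumo sums therefore does not hold for shares of the library total. In the KO libraries the lower values of Izumo1, Izumo2 and Izumo3 were offset in the Izumo sum by higher values of Izumo4. That difference of Izumo4 did not pass (limma adjusted p = 0.243). The makeup of the sum was not alike. Izumo4 held 95.0% and 93.3% of the sum in the KO libraries and 62.8% and 63.1% in the WT libraries, and Izumo2 held 0% in both KO libraries and 20.9% and 19.6% in the WT libraries. Izumo1 held 2.68% and 3.43% in the KO libraries, against 7.67% and 8.33% in the WT libraries. Leaving Izumo4 out, the other 8 genes with values summed to 74.6 and 84.3 FPKM in the KO libraries and 755 and 636 FPKM in the WT libraries.

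Tmem95 and Spaca6 encode sperm membrane proteins without which mouse sperm bind eggs but do not fuse with them. Tmem95, on chromosome 11, was listed at 0 in both KO libraries, against 24.7 and 22.7 FPKM in the WT libraries. Spaca6 on chromosome 17, read as Ncrna00085, was also listed at 0 in both KO libraries, against 19.5 and 19.3 FPKM in the WT libraries. The pair had like values in all 4 libraries, at modest WT levels that differed little within the genotype. The differences on the log2(FPKM + 1) scale were -4.63 for Tmem95 (SE 0.34, limma adjusted p = 8.3e-04) and -4.35 for Spaca6 (SE 0.34, limma adjusted p = 9.4e-04). With pseudocounts of 0.1 and 5 they were -7.89 and -2.52 for Tmem95 and -7.61 and -2.29 for Spaca6, and without WT library 2 neither passed (limma adjusted p = 0.0653 for each). The Spaca6 locus hosts the microRNAs Mir99b, Mirlet7e and Mir125a, which were listed at 0 in all 4 libraries.

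Dcst1, whose multi-pass membrane protein works with DCST2 in fertilization, lies on chromosome 3 and, of the 9 genes, was the one on which the KO libraries differed most on the log2 scale. It was at 16.2 and 1.39 FPKM in the KO libraries and 25.7 and 38.4 FPKM in the WT libraries. KO library 1 stood at 50.7% of the WT mean and KO library 2 at 4.33%, both below the WT range. The log2 change was -2.34 with a wide error (SE 0.91, limma adjusted p = 0.146). It passed after the GC correction (-2.37, limma adjusted p = 0.0224). It also passed, at the size first given, with a block of crossed library numbers (limma adjusted p = 0.0448). That block paired KO library 1 with WT library 2 and KO library 2 with WT library 1, and was added once the data had been seen. The change was -3.76 without KO library 1 and -0.91 without KO library 2. Each of those fits holds 1 KO library, and so nothing of the spread between the KO libraries. The size of the Dcst1 change rests on which KO library is used. Dcst1 and Dcst2 lie head to head on opposite strands and overlap in the annotation without sharing exon bases, and the pseudogene Gm10702 shares 1268 of the 5241 exon bases of Dcst1 on the other strand.

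Spaca4, which encodes a surface protein of the Ly6 family needed in the mouse for sperm to bind the zona pellucida around the egg, lies on chromosome 7 and was reduced strongly from a high level. It was at 23.3 and 43.1 FPKM in the KO libraries and 357 and 271 FPKM in the WT libraries. Both KO values were far below the WT values, at 7.41% and 13.7% of the WT mean. The log2 change was -3.25 (SE 0.38, limma adjusted p = 0.00331), and it no longer passed without WT library 1 (limma adjusted p = 0.223) or WT library 2 (limma adjusted p = 0.214). Fam83e overlaps Spaca4 on the opposite strand without sharing exon bases in the annotation. It was at 0.536 and 0 FPKM in the KO libraries and 12.4 and 15.3 FPKM in the WT libraries, and it fell too (log2 change -3.57, limma adjusted p = 0.00266).

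Plcz1, the egg activation factor on chromosome 6, was nearly lost. It was at 0.999 and 0.140 FPKM in the KO libraries and 60.9 and 54.6 FPKM in the WT libraries. Its KO mean was 0.986% of the WT mean, with both KO libraries low, and its WT level was much like that of Izumo1 and Izumo3. The log2 change was -5.28 (SE 0.41, limma adjusted p = 9.3e-04), and it was -6.81 and -3.50 with pseudocounts of 0.1 and 5. The call ended without WT library 1 (limma adjusted p = 0.131) or WT library 2 (limma adjusted p = 0.134).

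Plcz1 overlaps Capza3, which encodes a sperm form of an actin capping subunit, on the opposite strand. The annotation gives them 107 shared bases of the 2510 exon bases of Plcz1, and with no statement on strand in the counting, reads there cannot be told apart. Capza3 was at 0.858 and 0.0537 FPKM in the KO libraries and 113 and 84.3 FPKM in the WT libraries (log2 change -6.14, limma adjusted p = 7.1e-04). The nearest protein-coding genes on each side of the 10 genes numbered 18, leaving out the genes themselves, and 3 of these reached the filter on low values. Ap3d1 next to Izumo4, Plekha5 next to Plcz1 and Rpl18 next to Spaca4 did not pass, with log2 changes of 0.01, -0.80 and 0.95 (limma adjusted p = 0.990, 0.173 and 0.105).

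**Figure D2:**
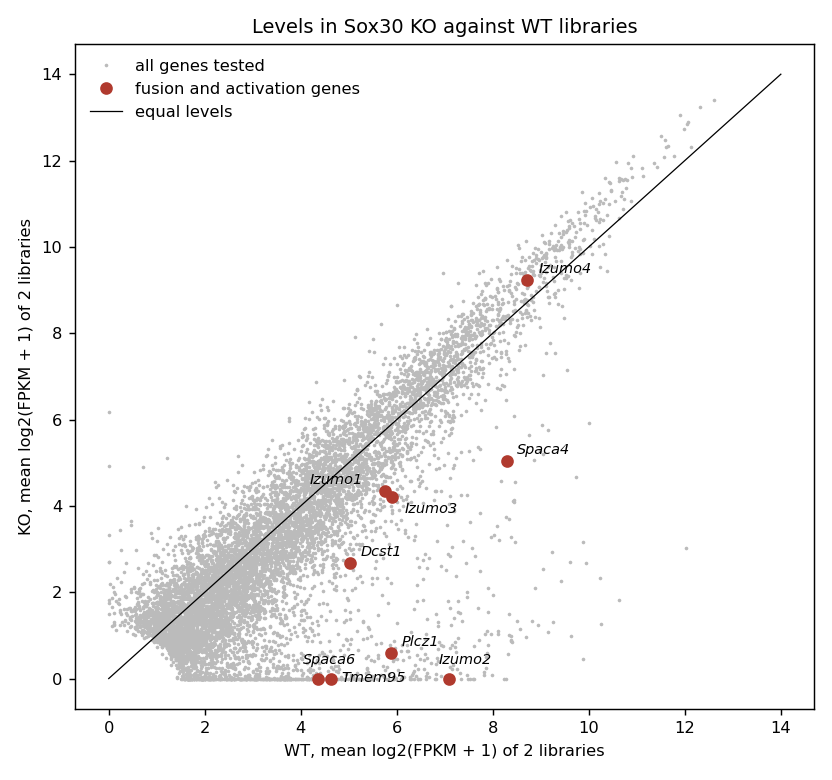
Mean log2(FPKM + 1) of the 2 KO libraries (vertical) against that of the 2 WT libraries (horizontal) for the 9124 genes tested (grey) and the 9 fusion and activation genes (red), with a line of equal levels. Izumo4 lies above the line, Izumo1 and Izumo3 lie together below it, and Izumo2, Spaca6, Tmem95 and Plcz1 lie at or near 0 in the KO.

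Among themselves, Izumo1 with Izumo3 and Spaca6 with Tmem95 were close pairs. Measured as the Euclidean distance of log2(FPKM + 1) over the 4 libraries, Izumo1 and Izumo3 were 0.294 apart and Spaca6 and Tmem95 0.391 apart. Spaca6 and Tmem95 were both listed at 0 in the KO libraries, so only their WT values add to that distance. Plcz1 was 2.001 from Izumo2 and 2.038 from Tmem95. Dcst1, Spaca4 and Izumo4 were 3.359, 3.606 and 6.024 from the nearest other gene of the group. These distances are descriptions over 4 libraries of 2 genotypes, and whether the changes of the genes differ from each other was not tested. Over all genes tested, the non-members most like Izumo1 were Speer4e at 0.274, Smap1 at 0.330 and Rnf4 at 0.431. Speer4e belongs to a family of similar copies, so its value is uncertain. Those most like Plcz1 were Fam187b at 0.288, Gm19395 at 0.335 and Fam71f1 at 0.418. Fam187b, for example, was at 0.867 and 0 FPKM in the KO libraries and 67.5 and 59.6 FPKM in the WT libraries.

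A wider list of sperm genes with parts in reaching, binding or fusing with the egg held both lost transcripts and transcripts that stayed abundant in the KO libraries. Of 29 genes listed, 27 were found and 23 tested, of which 13 fell, 0 rose and 10 did not pass, where 13.4% of all genes tested fell and 1.95% rose. The median change was -1.996, against -0.23 over all genes tested. Both KO values lay below both WT values for 19 of the 23, against 38.6% of genes tested, and above them for 0, against 22.2%. Eqtn, Spam1, Hyal5, Tmem81, Wbp2nl and Cd46, 6 of the 23 tested, were under 1 FPKM in both KO libraries, against 10.5% of all genes tested. All 6 were among the 13 that fell, and they passed the filter on low values through the WT libraries alone. Without WT library 1 the fallen genes numbered 4 (386 in the whole table), without WT library 2 they numbered 0 (0 in the whole table), without KO library 1 they numbered 19 (3071) and without KO library 2 they numbered 13 (1846).

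Several of the fallen genes encode proteins of the acrosome or the sperm surface. Eqtn, for equatorin of the acrosomal membrane, was at 0.627 and 0 FPKM in the KO libraries and 113 and 95.9 FPKM in the WT libraries (log2 change -6.37, SE 0.39, limma adjusted p = 5.5e-04). The hyaluronidase genes Spam1 and Hyal5, whose enzymes loosen the matrix around the egg, fell by 5.06 and 5.12 on the log2(FPKM + 1) scale. These sizes, like that of Eqtn, follow from the pseudocount, since the KO values are at or near 0. Spam1 was listed at 0 in both KO libraries, against 31.3 and 33.5 FPKM in the WT libraries. Hyal5 was at 0.419 and 0 FPKM in the KO libraries and 44.1 and 37.2 FPKM in the WT libraries.

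Tmem81, whose protein joins IZUMO1 and SPACA6 in a complex, was listed at 0 in both KO libraries, against 7.46 and 6.92 FPKM in the WT libraries (limma adjusted p = 0.00245). Wbp2nl, which encodes another proposed activator of the egg, was also listed at 0 in both KO libraries, against 16.2 and 11.9 FPKM in the WT libraries (limma adjusted p = 0.00142). Cd46, a complement regulator of the inner acrosomal membrane, was listed at 0 in both KO libraries, against 5.47 and 4.83 FPKM in the WT libraries. All 3 were thus listed above 0 only in the WT libraries, at modest levels.

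Spaca1, which is needed to form the acrosome, was at 45.8 and 31.0 FPKM in the KO libraries and 529 and 487 FPKM in the WT libraries (log2 change -3.72, limma adjusted p = 0.00107). Spaca3, a lysozyme-like gene, had a KO mean of 9.24% of its WT mean, and Tex29 had 4.34%. Adam1a, a subunit of fertilin, was at 2.27 and 0.0122 FPKM in the KO libraries and 12.8 and 24.9 FPKM in the WT libraries. Zp3r, Llcfc1 and Ace, the remaining falls and named after their values were seen, had KO means of 18.5%, 24.8% and 31.4% of their WT means. Llcfc1, which mouse sperm need for fusion, thus kept transcript at 120 and 143 FPKM in the KO libraries, against 596 and 462 FPKM in the WT libraries.

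Other genes of the same list stayed abundant in the KO libraries. Lypd4, of the same Ly6 family as Spaca4, was at 1281 and 889 FPKM in the KO libraries and 1422 and 1125 FPKM in the WT libraries (log2 change -0.25, limma adjusted p = 0.622). Zpbp2, of the acrosomal matrix, was at 765 and 527 FPKM in the KO libraries and 620 and 604 FPKM in the WT libraries. Tmem190, of the inner acrosomal membrane, was at 430 and 545 FPKM in the KO libraries and 703 and 557 FPKM in the WT libraries (limma adjusted p = 0.423). Adam3, required for sperm to pass into the oviduct, was at 243 and 125 FPKM in the KO libraries and 266 and 310 FPKM in the WT libraries (limma adjusted p = 0.257). For Tmem190 and Adam3 both KO values lay below both WT values, while Lypd4 and Zpbp2 overlapped between the genotypes. Spaca4 and Lypd4 were thus apart in the KO, and the difference between their changes was not tested.

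**Figure D3:**
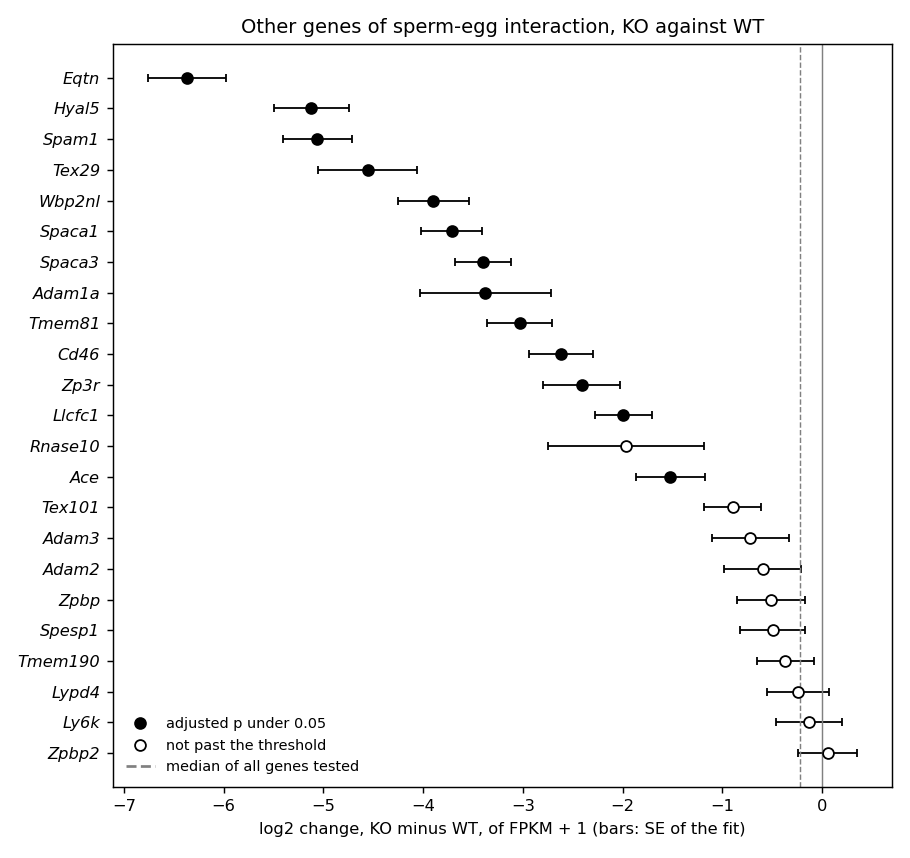
Log2 change of FPKM + 1, KO minus WT, with the SE of the limma fit, for the 23 tested genes of the wider list, the most reduced at the top. Filled points passed at an adjusted p under 0.05 and the dashed line is the median of all genes tested, -0.23. The changes run from -6.37 for Eqtn to 0.05 for Zpbp2.

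Markers of some other cells moved with the genotype: the summed levels of the Leydig, blood, spermatogonial, and macrophage and peritubular lists were lower in both KO libraries, while those of the spermatocyte and Sertoli lists overlapped. The 7 Leydig cell markers summed to 0.0674 and 0 FPKM in the KO libraries and 60.3 and 37.3 FPKM in the WT libraries. Insl3 alone, near 0 in both KO libraries, carried most of the WT sums, at 54.8 and 30.3 FPKM. Cyp11a1 and Cyp17a1 were listed at 0 in both KO libraries, against 1.87 and 1.94 FPKM and 2.50 and 3.40 FPKM in the WT libraries. The 5 blood markers summed to 8.51 and 0.178 FPKM in the KO libraries and 248 and 148 FPKM in the WT libraries. The 7 spermatogonial markers summed to 6.05 and 3.28 FPKM in the KO libraries and 29.2 and 32.6 FPKM in the WT libraries. The 10 spermatocyte markers, none of which passed, summed to 710 and 517 FPKM in the KO libraries and 581 and 653 FPKM in the WT libraries. Ccna1, a germ cell cyclin, carried much of that sum, at 369 and 210 FPKM in the KO libraries and 163 and 192 FPKM in the WT libraries, while 6 of the 10 (Sycp1, Sycp2, Sycp3, Spo11, Dmc1 and Hormad1) had both KO values below both WT values, against 38.6% of genes tested. The 6 Sertoli cell markers found summed to 19.6 and 20.6 FPKM in the KO libraries and 18.5 and 49.8 FPKM in the WT libraries. The 6 macrophage and peritubular markers summed to 2.77 and 0.283 FPKM in the KO libraries and 7.94 and 7.67 FPKM in the WT libraries. Acta2 carried most of the WT sums, at 1.23 and 0 FPKM in the KO libraries and 7.61 and 6.39 FPKM in the WT libraries. The other markers of this list were under 1 FPKM in every library. Of these, Cd68, Csf1r and Emr1 overlapped between the genotypes, while Lyz2 and Myh11 were listed at 0 in both KO libraries.

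The 9 round spermatid markers were all detected in each library and summed to 2158 and 1371 FPKM in the KO libraries and 3050 and 2774 FPKM in the WT libraries. Of these 9, 3 fell (Acrv1, Spaca1 and Hspa1l) and 0 rose, where 13.4% of all genes tested fell and 1.95% rose. Both KO values lay below both WT values for 6 of the 9, against 38.6% of genes tested. Spaca1, Zpbp and Zpbp2 also belong to the wider list above, so the 2 lists are not separate. Acrv1, of the acrosomal matrix and the most reduced of the 9, was at 16.6 and 9.15 FPKM in the KO libraries and 335 and 285 FPKM in the WT libraries. Spag6, Tekt1 and Zpbp2 overlapped between the genotypes, with KO means of 89.5%, 81.0% and 106% of their WT means. The part of these cell markers in the changes of the fusion genes was not tested, and in sorted cells fewer cells of a stage and less RNA per cell cannot be told apart.

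**Figure D4:**
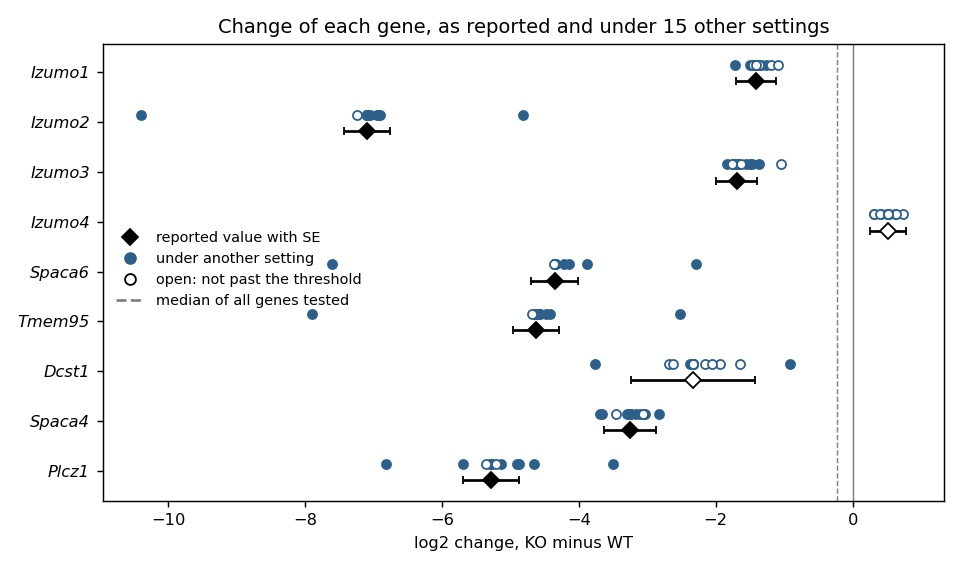
Log2 change, KO minus WT, of each of the 9 genes as reported (diamonds, with SE) and under 15 other settings (circles), with open symbols where the adjusted p was not under 0.05. Each gene kept its direction in every setting, Izumo4 at or above 0.31 and the other 8 at or below -0.91, and the widest spreads are those of Izumo2, Spaca6, Tmem95 and Plcz1, from the pseudocount, and then of Dcst1.

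Scaling moved the middle of all genes but not the direction of any of the 9. The median of all genes tested was -0.23 as reported, -0.05 with median-ratio scaling, 0.17 with quantile normalization and 0.02 after the GC correction. Among all genes tested, 1221 fell and 178 rose, against 1012 and 608 with quantile normalization. The fallen fusion and activation genes numbered 6 with either scaling, without Izumo1. With a mean of at least 5 FPKM required, which the 9 genes reached, 14.4% of 5456 genes fell.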

How the data were processed

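Haploid cells were sorted from mouse testes and sequenced as 4 libraries made with a NEBNext Ultra kit, per the labels' protocols. The authors deposited 1 table of FPKM per library. Cufflinks 2.0.2, TopHat2 2.0.6 and Cuffdiff, and the build mm9, are named in the submitters' processing notes, without their settings. Each table had 23021 entries, and 259 symbols on more than 1 entry were summed to give 22552 symbols. The sample titles gave the genotype and number of each library.

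Genes with a mean of at least 1 FPKM, 9124 in all, were transformed as log2(FPKM + 1) without rescaling and tested with limma 3.58.1 in R 4.3.3, with genotype as the only term, empirical Bayes moderation, a mean-variance trend (2 residual and 3.84 prior degrees of freedom), two-sided, with Benjamini-Hochberg adjustment over all genes tested and a threshold of 0.05. The fit was also run on simulated data, where only genes of high WT level were changed, each by more than Izumo1, Izumo3 or Izumo4 changed here. That simulation is therefore no check of the calls for those genes or for genes of lower WT level. Errors are standard errors of that fit.

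The genes and lists were chosen with earlier results of these data known. Named genes were the 10 listed, Sox30, the 3 genes nearest to Izumo1 and to Plcz1, the 10 most changed of the wider list past the threshold and its 4 most abundant genes not past it, and neighbours that passed or overlapped. Neighbours, exons and GC content came from GENCODE M21 and promoters from RefSeq, both on GRCm38, matched by symbol, and no coordinates were carried to mm9. Protein sequences were not analysed here. The settings tried in turn were pseudocounts of 0.1 and 5, no filter, a mean of at least 5 FPKM, median-ratio scaling, quantile normalization, a lowess correction on GC content (span 0.3, values for 98.7% of genes tested), robust empirical Bayes, no trend, each library left out, and the library number as a replicate block. The GC correction was fitted to the deviations of each library from the gene means, a form settled after the results of 2 earlier forms had been seen.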

Additional observations from a re-analysis of the deposited data

How the results depend on the processing

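Of the 9 genes, none changed direction in any of the 15 settings, and the count of 7 fallen genes lay between 6 and 8 in each setting that kept all libraries. Leaving out 1 library at a time, the fallen fusion and activation genes numbered 0 to 8, those of the wider list 0 to 19, and among all genes tested 0 to 3071 fell and 0 to 984 rose, the lowest counts without WT library 2. The number of genes that rose was 113 with a pseudocount of 0.1, 62 with no filter on low values, 273 with median-ratio scaling, 608 with quantile normalization and 322 after the GC correction, and 787 genes fell with a mean of at least 5 FPKM. The causes were not tested.

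With the library number as a replicate block, 1056 genes fell and 82 rose, and 6 of the fusion and activation genes fell, Izumo1 no longer passing (limma adjusted p = 0.0806). The numbers do not pair the libraries in the labels, and the deviations of same-numbered libraries from their genotype means correlated at -0.20 across genes. A crossed pairing, which was added once the data had been seen, gave 1416 falls and 390 rises, and 8 of the fusion and activation genes fell, Dcst1 among them. With 2 libraries per genotype and no read counts, small changes such as that of Izumo4 could not be resolved.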

Other observations

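Egg-side partners of these proteins were looked up as well. Of 11 such genes, all found, 6 were listed at 0 in all 4 libraries: Izumo1r, which encodes JUNO, the egg coat genes Zp1 and Zp2, Wee2, Astl and Bmp15. Of the 3 that reached the filter on low values, 0 passed (limma), where 13.4% of all genes tested fell and 1.95% rose. Cd81, a tetraspanin that eggs also use in fusion, was at 4.98 and 1.03 FPKM in the KO libraries and 10.8 and 20.6 FPKM in the WT libraries, with both KO values lower (log2 change -2.20, limma adjusted p = 0.0705). Gdf9, known as an oocyte growth factor, was at 11.5 and 3.90 FPKM in the KO libraries and 2.56 and 2.75 FPKM in the WT libraries, with both KO values higher (limma adjusted p = 0.213). Over all genes tested, both KO values were lower for 38.6% and higher for 22.2%. Cd9, a membrane protein that eggs need for fusion, was at 23.1 and 4.33 FPKM in the KO libraries and 7.89 and 5.23 FPKM in the WT libraries, with overlap between the genotypes (limma adjusted p = 0.607).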
